A study of Homo sapiens with 6 samples.

Results

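The genes described here are 39 human genes of DNA double-strand break signalling, homologous recombination, the Fanconi pathway, mismatch repair and end joining, measured by RNA-Seq in A549 cells with and without knock-down of the histone methyltransferase subunit KMT9α. They were taken by gene symbol from a list chosen with earlier results of these data known, without a threshold on any measured value. They are 39 of the 23180 gene symbols with counts, and 1 transcript stood for each, the one with the most counts in all 6 samples together. All 39 passed the filter on low counts and were tested among 13877 genes.

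A double-strand break is sensed by large kinases that halt the cell cycle, and it is then either joined end to end or resected to single-stranded DNA that invades the sister chromatid. The Fanconi proteins unhook crosslinks between the strands and hand the resulting break to recombination, whereas mismatch repair removes bases misplaced by the replication machinery. Homologous recombination needs a sister chromatid, and transcripts of many of its genes are known to be most abundant in S and G2 phase.

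A549 is an established lung adenocarcinoma line, here at passage 11 and labelled wild type. Both groups were transfected at 65 nM with DharmaFECT 1 and collected after 3 days, 3 samples with a control siRNA (siControl) and 3 with an siRNA against KMT9α (siKMT9α, siRNA number 1 of the study). The comparison therefore rests on 1 siRNA sequence in 1 cell line, and the dose, time and siRNA number come from the study's methods. The labels call the samples biological replicates without saying what separates them, so the p-values measure the spread between these samples only.

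Counts with 1 transcript per gene summed to between 15551778 and 18568639.5 per siControl sample and to between 13740097 and 19832395.5 per siKMT9α sample. N6AMT1, the gene of KMT9α, fell from 10.8 ± 0.622 to 3.15 ± 0.246 CPM (counts relative to the TMM-scaled library size, mean ± SD, n = 3 in each group here and below), a log2 fold change of -1.77 ± 0.12 (standard error). The 5 epithelial markers summed to 3319 to 3705 CPM in siControl and 1663 to 1749 CPM in siKMT9α, without TMM scaling. KRT8 and KRT18 made up most of that sum. Of the 5, 4 fell and CDH1 rose, from 3.38 ± 0.961 to 8.6 ± 0.962 CPM (log2 fold change 1.34 ± 0.16), and EPCAM was low in both groups, at 3.85 ± 0.395 and 0.572 ± 0.164 CPM. Of 10 markers of leukocytes, fibroblasts and endothelium, 7 were under the filter and CD3E was at 0 counts. Their sum, nearly all of it CD68, was 86.7 to 93.8 CPM in siControl and 29.7 to 31.3 CPM in siKMT9α, and the part of these markers in the results was not tested. In RNA of a whole culture, fewer cells of a kind and less RNA per cell cannot be told apart.

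Most of the repair genes were higher after knock-down of KMT9α. At an adjusted p under 0.05 in edgeR's quasi-likelihood F test, 28 of 39 rose, 5 fell and 6 did not pass, whereas 37.1% of all genes tested rose and 38.5% fell. The study's own threshold was P under 1e-08 and a log2 fold change beyond 0.26 in either direction, from edgeR without a named test. With the F test used here, 11 of the 39 rose and 2 fell at that threshold, beside 13.5% and 10.7% of all genes. The 2 were CHEK2 and FANCL, and FANCL no longer passed without siControl replicate 2 or without siKMT9α replicate 2, the second of which also took the lower genes among all genes from 1479 to 926. In 30 genes every siKMT9α sample lay above every siControl sample and in 6 every one lay below, against 37.6% and 39.4% of all genes, and in RAD50, PMS2 and XRCC4 the groups overlapped. The median log2 fold change of the 39 was 0.47 and that of all genes -0.01. Values ranged from -1.34 (CHEK2) to 2.61 (EXO1), and 10 genes were over 2-fold higher and 1 over 2-fold lower.

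Reads of the 39 genes made up 0.247% to 0.258% of a siControl sample and 0.310% to 0.316% of a siKMT9α sample. With scaling to library size alone the median of all genes shifted to -0.12 and that of the 39 to 0.36, and 25 rose and 7 fell at an adjusted p under 0.05. Over all genes that scaling turned the split at the study's threshold from 1878 higher and 1479 lower to 1516 higher and 1862 lower. With a correction of each sample for the GC content and length of the transcripts, 25 rose and 7 fell. The number of the 39 past the study's threshold was 13, but 21 with DESeq2, 24 with edgeR's likelihood-ratio test and 24 without the filter on low counts.

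**Figure D1:**
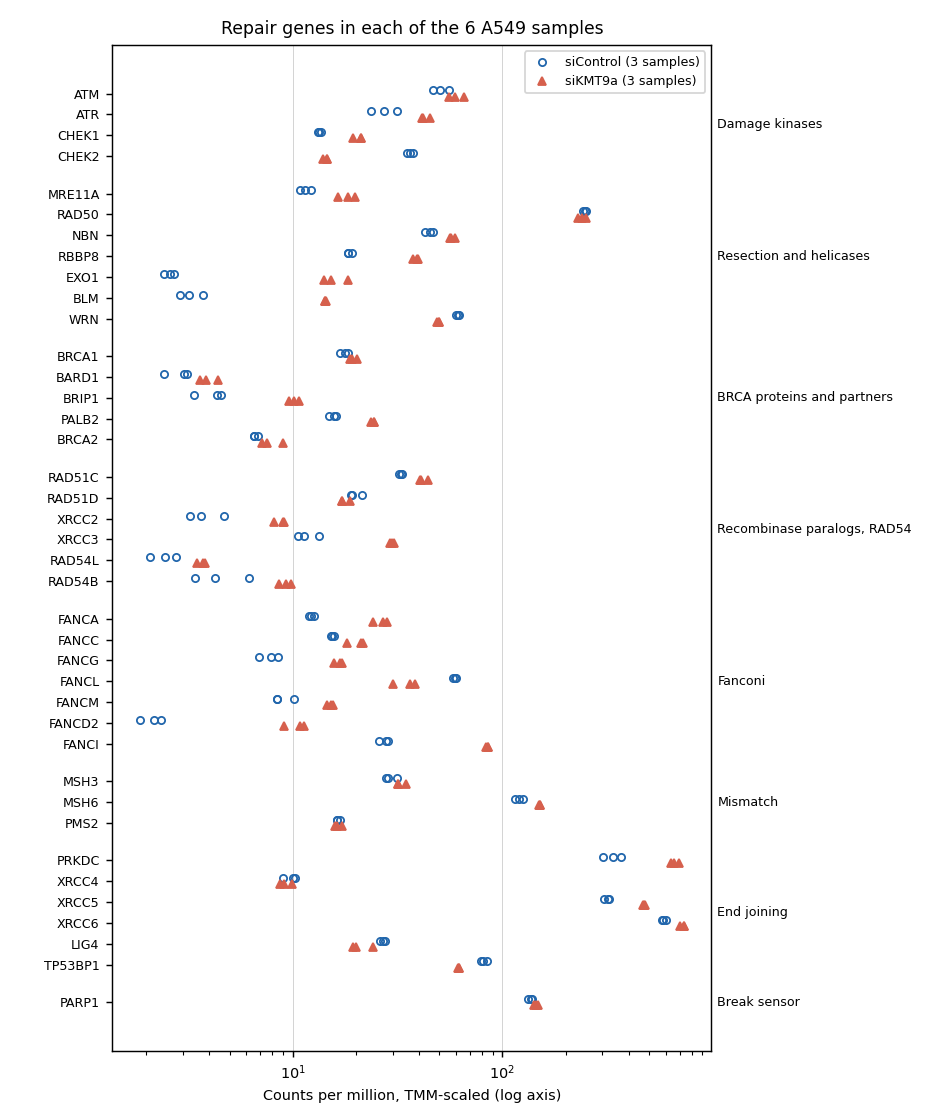
Each row is 1 gene, grouped by role, and the log axis gives TMM-scaled CPM. Open circles are the 3 siControl samples and triangles the 3 siKMT9α samples; EXO1, BLM and FANCD2 stand furthest to the right of their controls, CHEK2 furthest to the left, and the symbols of RAD50, PMS2 and XRCC4 overlap.

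Promoters were searched for words of the type bound by E2F, the factor family that switches on replication genes. Among the genes that rose most, EXO1 and FANCD2 held such a word and BLM, XRCC3 and BRIP1 did not. The part of E2F in these changes was not tested. RefSeq promoters (GRCh38.p14, 250 bases before to 50 after the start) were matched to 33 of the 39 genes; FANCI, NBN, PRKDC, RAD54B, WRN and XRCC5 had none in the table. The 4 words searched on both strands were TTTCCCGC, TTTGGCGC, TTTCGCGC and TTTGCCGC. At least 1 was found for 9 of 33 genes (27.3%) and for 6.55% of the 10944 tested genes with a promoter. Those 9 were EXO1, FANCA, FANCC, FANCD2, MSH3, MSH6, XRCC2 and XRCC6, which all rose, and PMS2, which did not pass the test. MSH3 only just passed (F test, adjusted p = 0.0449), and its log2 fold change was -0.0036 after the GC and length correction. None of the genes with a word was among the 4 that fell and had a promoter. Of the 9 genes more than 2-fold higher with a promoter, 4 held a word. In each 80-base stretch below the word is in capitals, 5′ to 3′ on the strand of the gene.
EXO1 (chr1:241848154-241848233, plus strand): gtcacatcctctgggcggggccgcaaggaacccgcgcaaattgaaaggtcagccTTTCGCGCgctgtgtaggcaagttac
FANCD2 (chr3:10026387-10026466, plus strand): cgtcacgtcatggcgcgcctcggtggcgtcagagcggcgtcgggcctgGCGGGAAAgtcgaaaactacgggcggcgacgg
XRCC2 (chr7:152676112-152676191, minus strand): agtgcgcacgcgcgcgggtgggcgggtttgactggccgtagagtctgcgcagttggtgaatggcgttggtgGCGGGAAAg
FANCA (chr16:89816776-89816855, minus strand): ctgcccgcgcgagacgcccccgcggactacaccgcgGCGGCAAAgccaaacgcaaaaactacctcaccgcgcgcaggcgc
PMS2 (chr7:6009106-6009185, minus strand): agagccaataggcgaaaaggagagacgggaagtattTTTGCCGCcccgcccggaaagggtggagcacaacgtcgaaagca

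In FANCD2, XRCC2 and FANCA the word lies on the opposite strand, and in EXO1 and PMS2 on the strand of the gene. The words of EXO1 and XRCC2 lie within the transcript, from its bases 5 and 22. Those of FANCD2, PMS2 and FANCA begin 2, 43 and 172 bases before the annotated start, so that of FANCD2 spans it. These 5 were chosen to show the 4 genes over 2-fold higher and the 1 that did not pass. Of 2 further words on both strands, TTTGAA was present for 9.09% of the genes against 13.6% of all promoters, and CCAAT for 54.5% against 42.9%. A word is a match of letters and not a measured binding site.

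Among the damage kinases 3 of 4 rose and 1 fell, beside 37.1% and 38.5% of all genes tested. CHEK2, the effector kinase activated by ATM, was the gene that fell most. It (chr22:29083731-29137822, hg19 as all gene positions here) had 36.2, 37.6 and 35.1 CPM in the siControl samples and 14.5, 13.9 and 14.5 CPM in the siKMT9α samples. All siKMT9α samples lay far below the controls, with a log2 fold change of -1.34 ± 0.071 (adjusted p = 1.93e-12). CHEK2 has pseudogene copies in the genome, between which the counting could split reads. CHEK1, its counterpart downstream of ATR, rose from 13.4 ± 0.205 to 20.6 ± 1.06 CPM (log2 fold change 0.62 ± 0.079). ATR, which answers to single-stranded DNA, rose by 0.64 ± 0.082 on the log2 scale, and by 0.34 after the GC and length correction. ATM, which answers to breaks, passed with a log2 fold change of 0.26 ± 0.070 (adjusted p = 0.00288), between 50.7 ± 4.45 and 60.3 ± 5.20 CPM. ATM turned to -0.17 (adjusted p = 0.00520) after the correction for GC and length and had an adjusted p of 0.0592 with library size alone, so its direction depended on the processing.

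Among the nucleases and helicases that open a break 5 of 7 rose (37.1% of all genes), 1 fell (38.5%) and 1 did not pass. EXO1, the exonuclease of long-range resection that also serves mismatch repair, changed most of the 39 genes. EXO1 (chr1:242011493-242053241) had 2.44, 2.59 and 2.70 CPM in siControl and 14.1, 18.4 and 15.2 CPM in siKMT9α. The lowest siKMT9α sample stood several-fold above the highest control, and the change was 6.13-fold (log2 2.61 ± 0.13, adjusted p = 1.34e-12). BLM, the helicase mutated in Bloom syndrome, followed a similar course (chr15:91260579-91358686), with 3.19, 2.90 and 3.74 CPM in siControl and 14.2, 14.5 and 14.2 CPM in siKMT9α. The siKMT9α samples were nearly equal to one another and all above the controls (4.32-fold, log2 2.11 ± 0.12, adjusted p = 3.65e-12). RBBP8, which encodes the resection starter CtIP, rose from 18.6 ± 0.477 to 38.7 ± 0.905 CPM (log2 1.06 ± 0.065).

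In the MRN complex, which binds the broken ends first, 2 genes rose (37.1% of all genes) and 1 did not pass. MRE11A, its nuclease, rose by 0.66 ± 0.092 on the log2 scale. NBN, its regulatory subunit, rose by 0.37 ± 0.057, and by 0.24 after the GC and length correction. RAD50, the ATPase of the complex, had 248 ± 4.07 CPM in siControl and 239.7 ± 10.5 CPM in siKMT9α (log2 fold change -0.05, 95% interval -0.15 to 0.05, adjusted p = 0.384). The groups of RAD50 overlapped, but its value was -0.29 (adjusted p = 4.35e-07) after the correction and -0.15 (adjusted p = 0.00681) with library size alone. WRN, the helicase mutated in Werner syndrome, fell (chr8:30890778-31031277), with 62.4, 60.3 and 61.1 CPM in siControl and 48.8, 49.99 and 49.6 CPM in siKMT9α. Its groups were apart, the log2 fold change was -0.31 ± 0.052 (adjusted p = 2.79e-05), and it was -0.51 after the correction.

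Of the BRCA proteins and their partners 4 of 5 rose (37.1% of all genes) and 1 did not pass. BRIP1, the helicase that binds BRCA1 (chr17:59756547-59940920), had 3.40, 4.57 and 4.37 CPM in siControl and 10.1, 10.7 and 9.57 CPM in siKMT9α. Every siKMT9α sample was above every control by more than the spread of either group (2.46-fold, log2 1.30 ± 0.13, adjusted p = 1.78e-08). PALB2, the bridge between BRCA1 and BRCA2, rose by 0.63 ± 0.074 on the log2 scale. BARD1, the partner of BRCA1 in its ubiquitin ligase, rose by 0.47 ± 0.16 (adjusted p = 0.0131), a call that was lost with DESeq2 (adjusted p = 0.0506), without siControl replicate 1 (0.0588) and without siKMT9α replicate 2 (0.0565). BRCA2 and BRCA1 had the smallest log2 fold changes of these 5. BRCA2, which loads the recombinase, just passed with 0.27 ± 0.12 (adjusted p = 0.0434) and was -0.11 after the GC and length correction. Its call was also lost with library size alone (0.17, adjusted p = 0.208), with DESeq2 (adjusted p = 0.116) and with at least 10 counts in every sample (0.0519). Without siKMT9α replicate 3, which had the highest of its 6 values, BRCA2 was 0.15 (adjusted p = 0.291), and without siControl replicate 2 or 3 its adjusted p was 0.0733 or 0.0830. BRCA1 had 17.6 ± 0.723 CPM in siControl and 19.4 ± 0.696 CPM in siKMT9α, a log2 difference of 0.14 with a 95% interval of -0.02 to 0.30 (adjusted p = 0.113), and it was -0.14 after the correction.

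Of the 4 recombinase paralogs and the 2 RAD54 translocases 5 rose (37.1% of all genes) and 1 did not pass. XRCC3 changed most (chr14:104163954-104181823), with 10.6, 11.4 and 13.3 CPM in siControl and 30.4, 29.6 and 29.1 CPM in siKMT9α. The siKMT9α samples lay closely together above the controls (2.51-fold, log2 1.33 ± 0.084, adjusted p = 3.04e-11). XRCC3 overlaps KLC1, which has more counts (11314 against 2004 in all samples) and a log2 fold change of -0.14. XRCC2, a subunit of a different paralog complex, rose from 3.86 ± 0.751 to 8.75 ± 0.513 CPM (log2 1.20 ± 0.14). RAD54B, which moves along DNA with the recombinase, rose by 1.00 ± 0.16, though its transcripts differed: NM_001205263 rose by 0.77 and NM_001205262 had a log2 fold change of 0.29 (adjusted p = 0.159). RAD54L rose by 0.60 ± 0.17 from 2.44 ± 0.342 CPM; it overlaps LRRC41, which has 6703 counts against 302.5 and a log2 fold change of -0.44. RAD51C rose by 0.35 ± 0.061. RAD51D had 19.9 ± 1.30 CPM in siControl and 17.7 ± 1.00 CPM in siKMT9α (log2 -0.17, 95% interval -0.33 to 0.0016, adjusted p = 0.0672), and passed at -0.27 with library size alone (adjusted p = 0.00518) and at -0.21 without siKMT9α replicate 2 (0.0494). It overlaps RAD51L3-RFFL, whose log2 fold change was 0.40.

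In the Fanconi pathway 6 of 7 genes rose and 1 fell, beside 37.1% and 38.5% of all genes. At the study's threshold 5 of the 7 passed, 4 higher and 1 lower, beside 13.5% and 10.7% of all genes. FANCD2 and FANCI form the pair that the pathway marks with ubiquitin. FANCD2 (chr3:10068113-10143614) had 1.86, 2.35 and 2.18 CPM in siControl and 11.3, 9.06 and 10.8 CPM in siKMT9α. It had few reads in the controls, no fewer than 35 in any sample, and the groups were far apart (4.90-fold, log2 2.29 ± 0.14, adjusted p = 2.71e-11). FANCD2 has pseudogene copies, which could share its reads. FANCI (chr15:89787194-89860362) had 27.8, 28.4 and 25.8 CPM in siControl and 83.6, 85.0 and 85.1 CPM in siKMT9α. Its spread was small beside its change (3.10-fold, log2 1.63 ± 0.057, adjusted p = 4.33e-15), and the overlapping gene POLG had a log2 fold change of 0.73.

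FANCL, the ubiquitin ligase that places that mark, moved the other way. FANCL (chr2:58386378-58468515) had 59.9, 59.3 and 57.9 CPM in siControl and 30.2, 36.2 and 38.5 CPM in siKMT9α. All siKMT9α samples were lower, with a log2 fold change of -0.75 ± 0.070 (adjusted p = 1.23e-08), and the overlapping gene VRK2 had one of -0.69. Of the core complex that works with FANCL, FANCA rose from 12.3 ± 0.33 to 26.4 ± 2.06 CPM (log2 1.11 ± 0.082). FANCA overlaps ZNF276, at 0.78. FANCG rose by 1.09 ± 0.10, and FANCM, the translocase that anchors the complex to DNA, by 0.75 ± 0.10. FANCC rose by 0.38 ± 0.084, and by 0.20 after the GC and length correction.

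**Figure D2:**
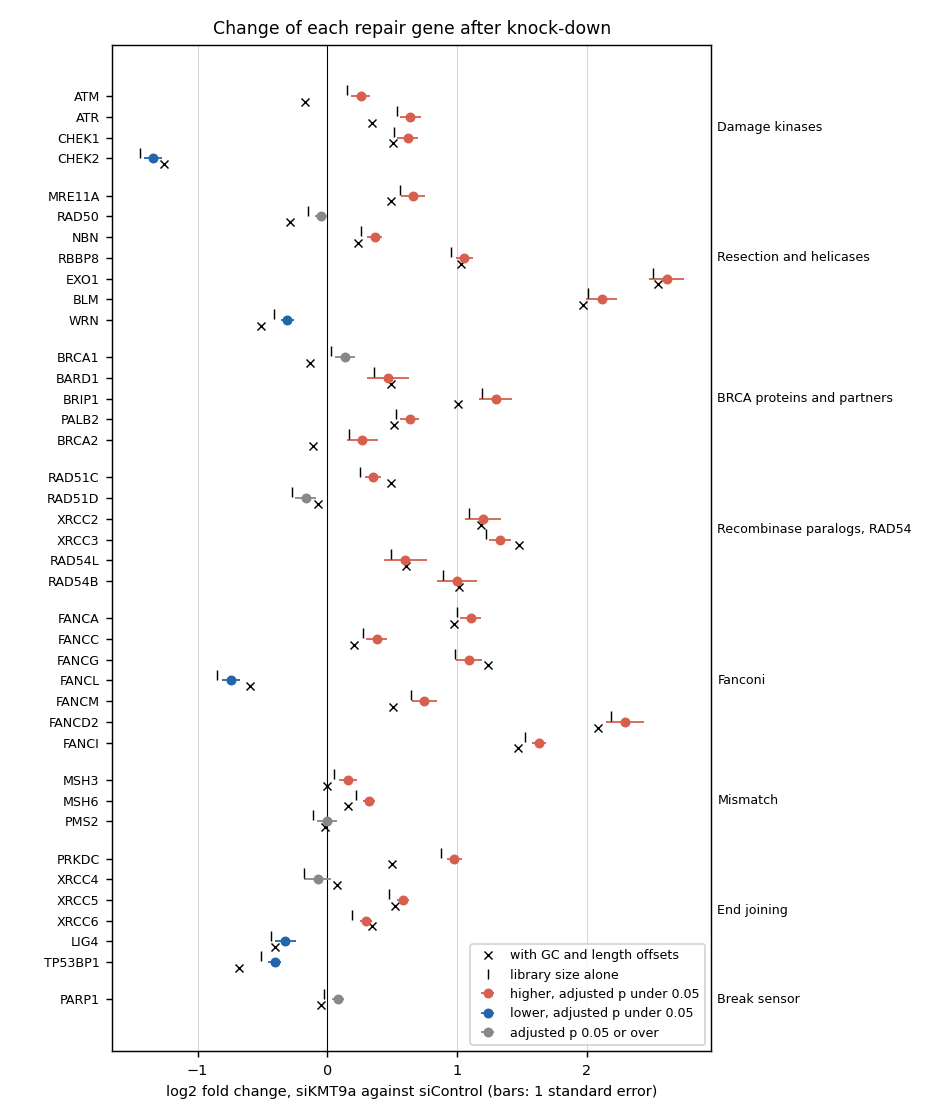
Points are log2 fold changes of siKMT9α against siControl with bars of 1 standard error, in red where higher and blue where lower at an adjusted p under 0.05 and grey otherwise; crosses and ticks give the value with GC and length offsets and with library size alone. The signs of ATM, BRCA1, BRCA2, MSH3, XRCC4 and PARP1 flip with the offsets and that of PARP1 also with library size, whereas BLM, EXO1 and FANCD2 remain at 1.97 or more with the offsets.

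Mismatch repair showed small values. MSH6, which recognises single mismatches, rose from 119.9 ± 5.04 to 150.1 ± 1.04 CPM (log2 0.32 ± 0.048, adjusted p = 5.35e-06), and by 0.16 after the GC and length correction. MSH3, which recognises loops, had a log2 fold change of 0.16 ± 0.069 (adjusted p = 0.0449), which turned to -0.0036 with the correction (adjusted p = 0.963). Its call was also lost with library size alone, with DESeq2, with a stricter count filter and without siControl replicate 2 or 3 or siKMT9α replicate 1 or 2 (adjusted p up to 0.162 among these replicates). PMS2, an endonuclease subunit that has pseudogene copies, had 16.5 ± 0.373 CPM in siControl and 16.5 ± 0.684 CPM in siKMT9α (log2 -0.0030, 95% interval -0.17 to 0.16).

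Of the 6 end joining genes 3 rose, 2 fell and 1 did not pass, beside 37.1% and 38.5% of all genes tested. The DNA-dependent protein kinase, whose subunits hold the broken ends, rose in all 3 of its genes. PRKDC, the catalytic subunit, rose from 337 ± 33.5 to 664 ± 27.7 CPM (log2 0.98 ± 0.061, adjusted p = 2.46e-11), and its log2 value was 0.50 after the correction for GC and length. XRCC5, which encodes Ku80, rose by 0.58 ± 0.046. XRCC6, which encodes Ku70, rose by 0.30 ± 0.046, and by 0.19 with library size alone. Of the ligation step, LIG4, the ligase (chr13:108859792-108867130), fell, with 27.6, 26.9 and 26.0 CPM in siControl and 20.0, 19.4 and 24.2 CPM in siKMT9α. Its log2 fold change was -0.33 ± 0.082 (adjusted p = 0.00137), with siKMT9α replicate 3 nearest to the controls. XRCC4, the scaffold of the ligase, had a log2 fold change of -0.08 with a 95% interval of -0.29 to 0.14 (adjusted p = 0.515), and 0.08 after the correction.

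TP53BP1, the chromatin protein that shields ends from resection, also fell (chr15:43699412-43802707), with 84.9, 79.3 and 81.2 CPM in siControl and 61.8, 61.3 and 62.2 CPM in siKMT9α. Its groups were apart (log2 -0.40 ± 0.051, adjusted p = 6.13e-07), and the value was -0.68 after the GC and length correction. PARP1, the sensor of strand breaks, had 136 ± 3.34 CPM in siControl and 144 ± 3.09 CPM in siKMT9α. Its log2 fold change of 0.08 (95% interval -0.02 to 0.18, adjusted p = 0.117) turned to -0.02 with library size alone and to -0.05 after the correction.

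By role group, the median log2 fold change was 1.09 for Fanconi, 0.80 for paralogs and RAD54, 0.66 for resection and helicases, 0.47 for the BRCA proteins and partners, 0.44 for damage kinases, 0.16 for mismatch and 0.11 for end joining. Groups of 3 to 7 genes were chosen with the values known, and their medians were not compared by a test.

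**Figure D3:**
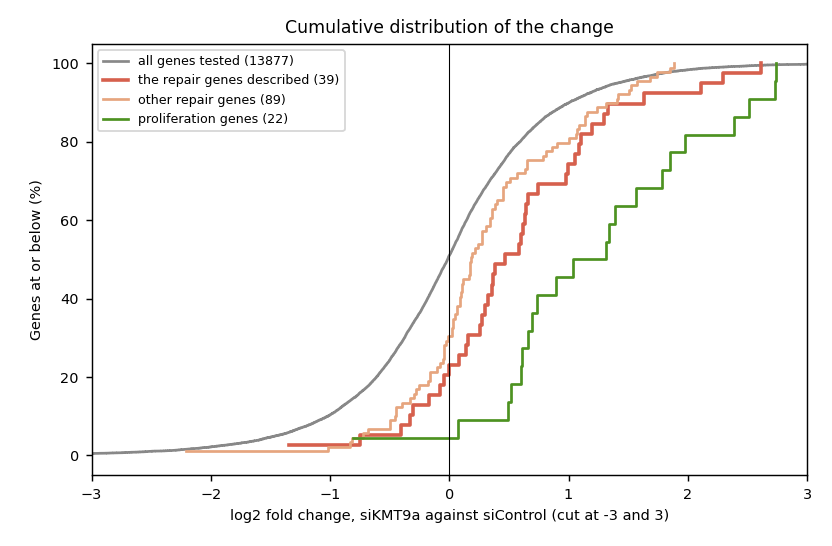
Curves give the share of genes in percent at or below each log2 fold change of siKMT9α against siControl. The curve of the 39 repair genes lies to the right of that of all 13877 genes tested over most of its range, that of the 89 other repair genes lies between them for most of its length, and that of the 22 proliferation genes lies furthest right over most of its length.

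Levels were compared between genes only as CPM per kb of transcript. The 2 Ku genes were the most abundant in both groups, XRCC6 at 279 and 343 and XRCC5 at 93.2 and 140 CPM per kb in siControl and siKMT9α, apart from each other and from the next gene. FANCD2, BRIP1 and BRCA2 were lowest in siControl, at 0.425, 0.506 and 0.585 CPM per kb, where FANCD2 and BRIP1 overlapped. In siKMT9α BRCA2 was lowest at 0.698 CPM per kb, followed by RAD54L at 1.18 and BRIP1 at 1.25, which overlapped each other. FANCI moved from rank 17 to 9 and PRKDC from rank 8 to 3, whereas CHEK2 moved from 9 to 15 and LIG4 from 14 to 23. Of 38 neighbouring pairs in the order, 18 overlapped in siControl and 22 in siKMT9α.

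**Figure D4:**
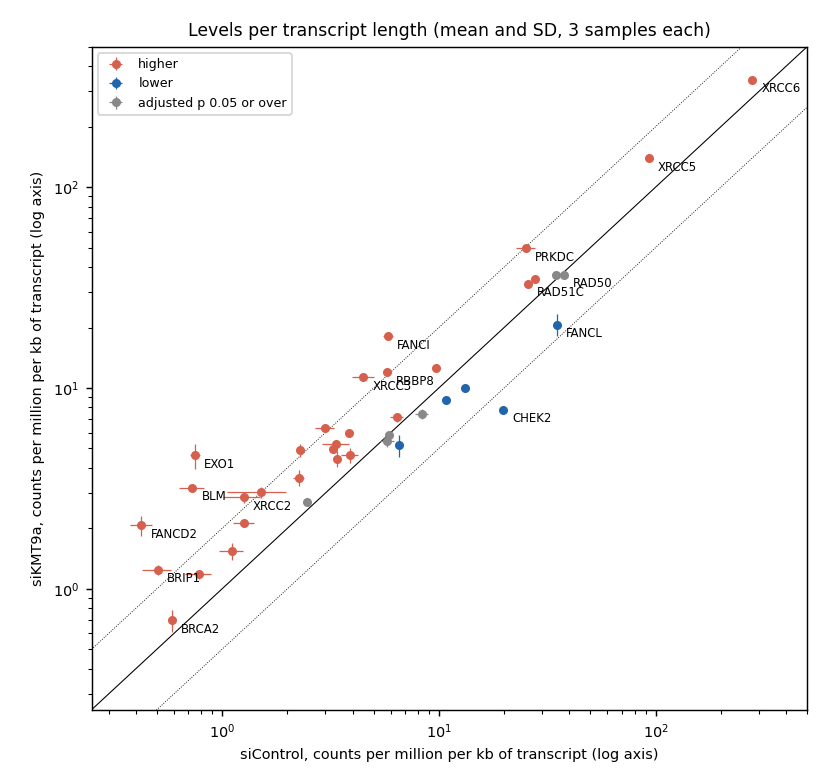
Both log axes give CPM per kb of transcript (mean and SD of 3 samples), siControl across and siKMT9α up; the solid line marks equal levels and dotted lines 2-fold differences. EXO1, BLM, FANCD2, FANCI, XRCC3 and BRIP1 are among the 10 genes above the upper dotted line, CHEK2 is the 1 gene below the lower one, and the 2 Ku genes are at the top right.

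In all, 21 of the 39 genes had more than 1 transcript. Their 41 other transcripts all had the sign of the transcript used, and 37 differed from it by less than 0.1 on the log2 scale. Transcripts of a gene can share reads, so this is no independent check. NM_007294 and NR_027676 of BRCA1, for example, had 1846 and 1845.5 counts in all samples together. Besides RAD54B, CHEK1 had a shorter transcript at 0.38 (adjusted p = 0.00216) instead of 0.62. FANCC had one at 0.21 instead of 0.38, which did not pass (adjusted p = 0.195).

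The other genes of these pathways were read from lists chosen with earlier results of these data known. Of 89 tested, 45 rose and 17 fell at an adjusted p under 0.05 (37.1% and 38.5% of all genes), with a median log2 fold change of 0.18. Among 26 other recombination genes 12 rose and 5 fell. DNA2, a second long-range resection nuclease, rose by 1.88 ± 0.10, and SWI5, a recombination cofactor, fell by 2.21 on the log2 scale. Of 21 damage signalling genes 10 rose and 1 fell, led by CLSPN (1.40 ± 0.092), TOPBP1 (1.09 ± 0.061) and MDC1 (0.86 ± 0.075), which are adaptors of the checkpoint kinases. Of 11 other Fanconi genes 5 rose and 4 fell. FANCB, at 1.63 CPM in siControl, rose by 1.74 ± 0.18 and FANCE by 1.24 ± 0.13, whereas ERCC4, the crosslink nuclease, fell by 1.02 on the log2 scale. Of 15 genes of mismatch repair and gap filling 10 rose and 2 fell, with RFC5 at 1.68, LIG1 at 1.41 and RFC3 at 1.14. Of 8 end joining genes 4 rose and 1 fell, DCLRE1C most at 1.51, and of 8 single-strand break genes 4 rose and 4 fell.

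Proliferation genes moved in the direction of most of the 39 genes. Of 22, 20 rose and 1 fell (37.1% and 38.5% of all genes), with a median log2 fold change of 1.18. TOP2A, PLK1 and MKI67 rose by 2.74, 2.73 and 2.51. Of 16 targets of p53, the damage-activated transcription factor, 9 rose and 4 fell, with a median of 0.29. ZMAT3 rose by 1.23 ± 0.067, whereas GADD45A and TP53I3 fell by 0.90 and 0.81. With the same siRNA in A549 cells, the study reports a longer population doubling time and lower viability. It reports no significant difference in how the cells were spread over the cell cycle phases. The part of the proliferation genes in the values of the repair genes was not tested.

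**Figure D5:**
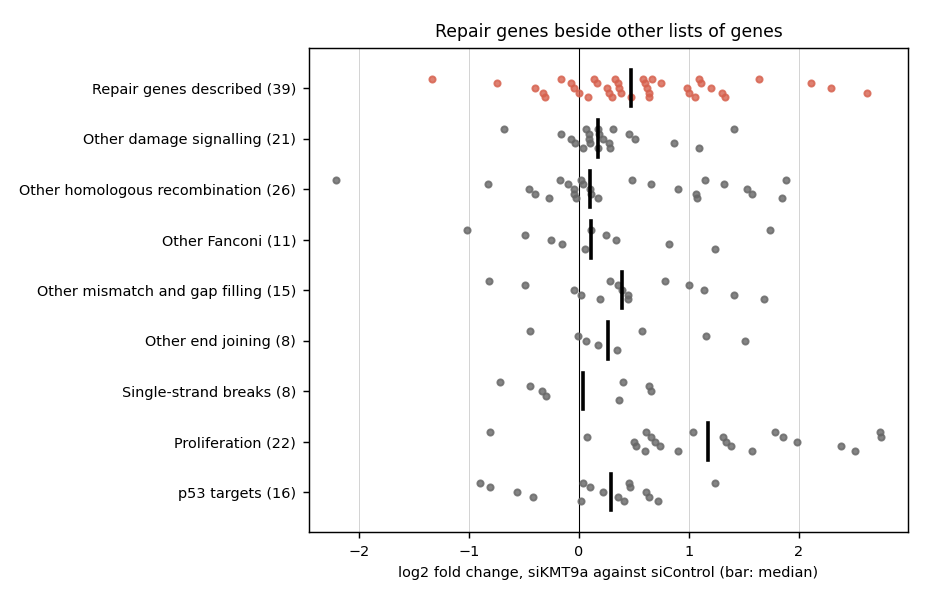
Each point is the log2 fold change of 1 gene, spread vertically for legibility only, with a bar at the median of its list and the number of genes in parentheses. The median of the 39 repair genes, 0.47, is above the 6 medians of the other repair lists and below the 1.18 of the proliferation genes.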

How the data were processed

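RNA-Seq was analysed for 6 samples of A549 cells, 3 siControl and 3 siKMT9α. For the estimated counts that the authors deposited without normalization, they used STAR with the hg19 genome and then HOMER (analyzeRepeats) on RefSeq transcripts. Every value was a multiple of 0.5, and 36.4% had a fraction. HOMER's counting options, the use of strand and the library type are not given in the sources used here, so reads of overlapping genes cannot be told apart. The table also holds the authors' own fold changes and p-values, which were not used. Of 38767 rows, the 1182 without a symbol and counts were left out, which left 37585 transcripts. The table had 0 sample columns without a sample.

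After rounding, edgeR 4.0.16 (R 4.3.3) was run with TMM factors, filterByExpr and the two-sided quasi-likelihood F test, with p-values adjusted by the Benjamini-Hochberg method over 13877 genes. Standard errors of log2 fold changes were taken as their absolute value over the root of F, and 95% intervals used the degrees of freedom of that test. CPM values were TMM-scaled unless stated. An exact permutation test of 3 against 3 cannot go below p = 0.1. Samples of a group differed by a chi-square of 1.34 to 5.15 per gene, and samples of different groups by 104 to 141. None was thus an exact copy of another, but these values do not show whether samples of a group came from separate cultures. The coefficient of variation fitted between samples of a group was 4.47%. Depth limits the low genes most, and the smallest count of any of the 39 genes in a sample was 35.

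The genes and lists were chosen with earlier results of these data known. Every gene of the 39 is named, those with the largest changes in each direction with all sample values, and at most 3 genes of each other list. Alternatives were scaling to library size alone or by RLE factors, DESeq2 1.42.0, the likelihood-ratio test, a minimum of 10 counts in each sample, no filter at all, all transcripts in place of 1 per gene, a replicate block, offsets for GC content and length (GC known for 98.8% of genes), both together, and leaving out each sample.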

Additional observations from a re-analysis of the deposited data

How the results depend on the processing

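Over 16 alternatives, 624 log2 fold changes of the 39 repair genes were recomputed, of which 580 kept their direction and their side of the threshold, and 29 genes did so in every one. The genes past the study's threshold were 3357 of all genes, but 5962 with the likelihood-ratio test and 6070 without the filter, and 2326 to 4085 when a sample was left out. Those at an adjusted p under 0.05 were 10492, and 10004 to 10313 when a sample was left out. With every transcript tested the counts are of transcripts and not of genes. Of 24770 transcripts, 6767 passed the study's threshold and 18897 an adjusted p under 0.05. Of the 39 genes, 13 passed the study's threshold, but 21 with DESeq2, 24 with the likelihood-ratio test and 24 without the filter, and 9 to 16 when a sample was left out (1 to 2 of them lower); 33 passed at an adjusted p under 0.05, and 31 to 32 when a sample was left out. Leaving out siKMT9α replicate 2 gave the 9.

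With GC and length offsets the log2 fold change turned to -0.17 for ATM, -0.14 for BRCA1, -0.11 for BRCA2, -0.0036 for MSH3, 0.0771 for XRCC4 and -0.0487 for PARP1. With the offsets and the replicate block together it was -0.17 for ATM, -0.13 for BRCA1, -0.12 for BRCA2, 0.0755 for XRCC4 and -0.0486 for PARP1. With library size alone PARP1 turned to -0.0236. PMS2, at -0.0030, turned to 0.0090 with RLE factors, 0.0099 with DESeq2 and 0.0084 without the filter. It ranged from -0.0305 to 0.0331 when a sample was left out, and was above 0 without siControl replicate 1 or 3 or siKMT9α replicate 2 or 3. The cause was not tested.

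Labels give both groups the replicate numbers 1 to 3, but deviations of samples with the same number correlated at -0.07, 0.02 and -0.07, and 0 of 6 samples correlated best with their own number. With a replicate block 2342 genes passed the study's threshold, 974 of them lower, with 9 among the 39 (8 higher and 1 lower, CHEK2), and 32 of the 39 passed at an adjusted p under 0.05, BRCA2 losing its call (adjusted p = 0.0631).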
